A study of Ovis aries with 10 samples.

Results

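The follistatin-like genes and the genes of activin signalling were followed in the mediobasal hypothalamus of the ewe, which contains the arcuate nucleus and, below it, the median eminence. The 10 genes were chosen by symbol from the 33775 genes of the count table: the follistatin family members FST, FSTL1, FSTL3, FSTL4 and FSTL5, the activin subunit genes INHBA and INHBB, and the activin receptor genes ACVR1B, ACVR2A and ACVR2B. FSTL4 drew the choice of this group, because it was among the genes with the smallest p of luteal against follicular libraries in an earlier analysis of these data, and the other genes were added by family and pathway. The phase difference of FSTL4 is therefore given below as a description, with no test.

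The samples came from 20 Ile-de-France ewes, all adult, 10 taken in the follicular phase of the ovarian cycle, before ovulation, and 10 in the luteal phase. No other treatment or genotype is given in the labels. Each library was made from a random equimolar mix of RNA of 2 ewes of 1 phase, which gave 5 libraries per phase, and a mix hides the difference between its 2 ewes. The title of the series names progesterone, the steroid of the luteal phase, and the design has 1 comparison, luteal against follicular.

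Activins are dimers of inhibin beta subunits. They bind a type II receptor, which recruits and phosphorylates a type I receptor, and this in turn phosphorylates SMAD2 and SMAD3, which enter the nucleus with SMAD4. Follistatin and FSTL3 are secreted proteins that bind activins and keep them from their receptors, while FSTL1, FSTL4 and FSTL5 share the follistatin domain and are not established as activin antagonists. In the reproductive axis activin and follistatin are best known from the pituitary gonadotrope, where activin raises the synthesis of follicle-stimulating hormone.

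Library totals ran from 20644992 to 43193449 reads, and follicular 1 and 3 were the shallowest. The first principal component of the libraries held 51.0% of the variance. Follicular 1, 3 and 4 lay at its low end (-53.2, -61.6 and -35.8), with 2.42% to 2.63% of their reads on 20 listed ribosomal protein genes. Follicular 5 (48.1) lay within the luteal range of -14.4 to 58.2, with a ribosomal protein share of 1.501% against 1.56% to 2.19% in luteal libraries. Markers of other tissue were present: 13 of 14 pituitary and pars tuberalis markers were matched, and none was at 0 over all libraries. Their summed level was 3471 to 4991 CPM in follicular and 2819 to 5005 CPM in luteal libraries. The sum was led by CGA, the shared subunit of the glycoprotein hormones. CGA itself was lower in every luteal library than in any follicular library. Of the 13 markers 8 averaged higher and 5 lower in luteal libraries, with a median log2 fold change of 0.36. None passed edgeR over all genes, and the sum hides these opposite directions. Neuron markers summed to 2433 to 2663 and 2058 to 2764 CPM, and astrocyte markers to 6021 to 7300 and 4675 to 6808 CPM. All 8 tested choroid plexus markers averaged higher in luteal libraries (summed level 26.1 to 59.4 and 38.5 to 122.2 CPM), and 8 of 10 oligodendrocyte markers (906 to 1510 and 575 to 1403 CPM) and all 20 ribosomal protein genes averaged lower, none passing edgeR over all genes. The median of the choroid plexus sum was not higher in luteal libraries (48.4 CPM, against 50.9 CPM in follicular libraries). CPM relates a gene's reads to the library total after TMM scaling, which sets libraries to a common scale. Since gene lengths in transcripts were not used here, CPM levels are compared between libraries and not between genes. In such bulk tissue fewer cells of a type and less RNA per cell cannot be told apart.

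FSTL4 was higher in every luteal library than in any follicular library. This gene encodes a protein of the follistatin-like family with a follistatin domain and immunoglobulin-like domains. Its level was 34.2, 34.3, 37.5, 34.98 and 36.03 CPM in follicular libraries 1 to 5, and 47.9, 46.5, 59.5, 46.4 and 54.2 CPM in luteal libraries 1 to 5. The follicular libraries lay close together and the luteal libraries spread further, with luteal 3 and 5 highest. The follicular mean was 35.4 ± 1.38 CPM and the luteal mean 50.9 ± 5.76 CPM (SD, n = 5 for each). The difference was 0.52 on the log2 scale (SE 0.10), or 1.44 times by the means.

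The spread of FSTL4 was smaller in follicular than in luteal libraries. Its coefficient of variation was 3.91% in follicular and 11.3% in luteal libraries. Counting error alone gives 2.80% as a mean over all 10 libraries, at its 667 to 2300 reads per library. The follicular libraries held fewer of these reads (4895 against 9806 in luteal libraries), so counting error was larger there. Its size in each phase was not computed. FSTL4 was picked by a small p in this contrast, which favours genes with a small spread within phases. These values and the fits below are therefore a description only. Follicular 5, which lay among the luteal libraries on the first component, had 36.03 CPM of FSTL4, inside the follicular range of 34.2 to 37.5 CPM. With the first component as a covariate, an alternative added after seeing the data, the log2 difference was 0.47 (SE 0.09), and without follicular 1 and 3 it was 0.54 (SE 0.12). The component is partly tied to phase, as follicular 1, 3 and 4 lay below every luteal library on it. A fit with it as a covariate can therefore also remove part of a phase difference, for FSTL4 and for all genes below. The locus of FSTL4 holds 2 other annotated genes in the assembly used for names, which had 358 reads in all against 14701 of FSTL4, and the strand setting of the counting is not given in the sources used here.

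**Figure D1:**
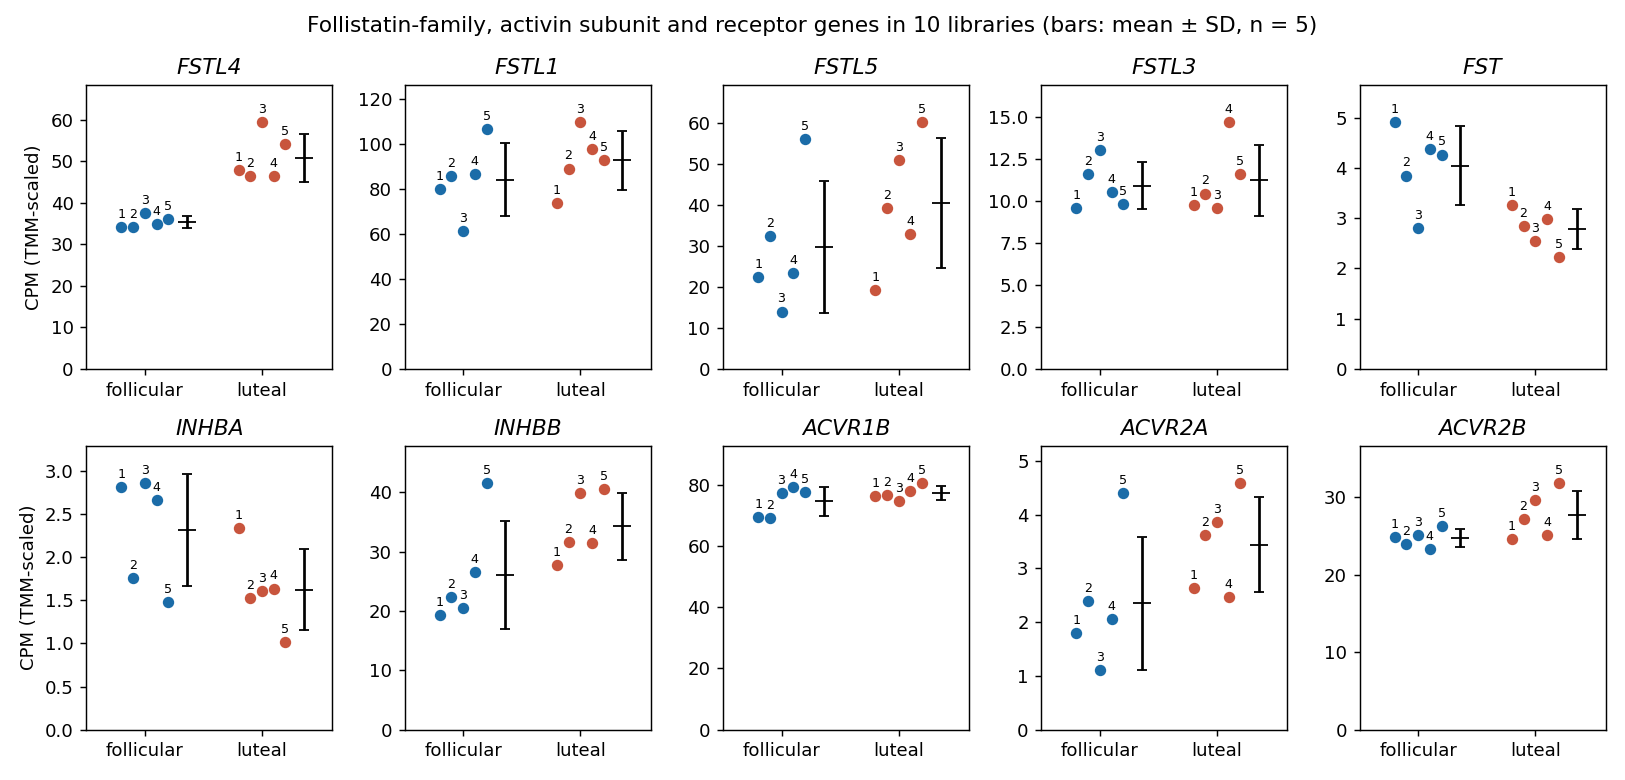
Levels of the 10 genes in CPM on the vertical axis, from 0, for the 5 follicular (blue) and 5 luteal (red) libraries, with the replicate number above each point and the mean ± SD as a black bar beside the points. FSTL4 is the gene whose luteal points (46.4 to 59.5 CPM) all lie above its follicular points (34.2 to 37.5 CPM). Follicular 5 is the highest follicular point for FSTL1, FSTL5, INHBB, ACVR2A and ACVR2B.

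FSTL5, which is built like FSTL4, did not show this separation. Its level was 22.5, 32.4, 14.01, 23.4 and 56.0 CPM in follicular libraries 1 to 5 and 19.3, 39.4, 51.0, 32.9 and 60.3 CPM in luteal libraries 1 to 5. The phases overlapped over most of their range, with follicular 5 and luteal 3 and 5 high and follicular 3 and luteal 1 low. The means were 29.7 ± 16.1 and 40.6 ± 15.9 CPM (± SD, n = 5 for each; log2 fold change 0.44, SE 0.36, edgeR adjusted p = 0.529). FSTL5 was the most variable of the 10 genes, with a ratio of 4.30 between its highest and lowest library. With the first component as a covariate its log2 fold change turned to -0.18 (SE 0.14).

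FSTL1 encodes a secreted glycoprotein made mainly by mesenchymal and glial cells. It had 80.2, 85.9, 61.6, 86.8 and 106.6 CPM in follicular libraries 1 to 5 and 73.9, 89.1, 109.8, 97.9 and 92.7 CPM in luteal libraries 1 to 5. The phases overlapped, and the log2 fold change of 0.14 (SE 0.15, edgeR adjusted p = 0.616) was smaller than its error and turned to -0.05 with the first component as a covariate. The 12 fibroblast markers of meninges and vessel walls, cells in which FSTL1 is known to be expressed, summed to 826 to 982 CPM in follicular and 759 to 1139 CPM in luteal libraries, and their part in the levels of FSTL1 was not tested.

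Among the antagonists that bind activin, FST averaged lower in luteal libraries. It had 4.92, 3.85, 2.81, 4.38 and 4.27 CPM in follicular libraries 1 to 5 and 3.27, 2.85, 2.55, 2.98 and 2.24 CPM in luteal libraries 1 to 5. Follicular 3 fell inside the luteal range and the other follicular libraries lay above all luteal ones. The means were 4.05 ± 0.788 and 2.78 ± 0.398 CPM (± SD, n = 5 for each; log2 fold change -0.54, SE 0.19), and FST did not pass (edgeR adjusted p = 0.426). The value rests on 53 to 196 reads per library, for which counting error alone gives a coefficient of variation of 9.88%. With the first component as a covariate the log2 fold change was -0.50 (SE 0.19), and without follicular 1 and 3 it was -0.58 (SE 0.19).

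FSTL3, the other antagonist, had close means in the phases. It had 9.58, 11.6, 13.1, 10.6 and 9.84 CPM in follicular libraries 1 to 5 and 9.78, 10.5, 9.60, 14.7 and 11.6 CPM in luteal libraries 1 to 5. The phases overlapped almost fully, with luteal 4 highest (log2 fold change 0.04, SE 0.16, edgeR adjusted p = 0.896). Without luteal 4 the log2 fold change was -0.07 (SE 0.14).

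The activin subunit genes averaged in opposite directions. INHBA, which encodes the beta A subunit, had 2.82, 1.76, 2.87, 2.66 and 1.48 CPM in follicular libraries 1 to 5 and 2.34, 1.53, 1.61, 1.64 and 1.01 CPM in luteal libraries 1 to 5. INHBB, which encodes the beta B subunit, had 19.3, 22.3, 20.4, 26.6 and 41.6 CPM in follicular libraries and 27.7, 31.6, 39.9, 31.5 and 40.6 CPM in luteal libraries, in the same order. For both genes follicular 5 lay at the luteal side, as the follicular library with the lowest INHBA and the highest INHBB. The log2 fold changes were -0.50 (SE 0.27) for INHBA and 0.39 (SE 0.21) for INHBB, each with an edgeR adjusted p of 0.432. With the first component as a covariate they were -0.08 (SE 0.20) and 0.08 (SE 0.11). INHBA rests on 43 to 96 reads per library, where counting error alone gives a coefficient of variation of 13.0%, against 3.42% for INHBB.

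Within a library the reads of INHBB stood to those of FST as 3.93, 5.80, 7.26, 6.08 and 9.75 in follicular libraries 1 to 5 and as 8.49, 11.1, 15.7, 10.6 and 18.1 in luteal libraries 1 to 5. This ratio is not scaled to gene length and is read across libraries only. It was higher in 4 of 5 luteal libraries than in any follicular library, with follicular 5 above luteal 1. This was the most separated of the ratios taken. The count was 2 of 5 for FSTL3 to FST and 1 of 5 for INHBB to INHBA. It was 0 for INHBA to FST, ACVR2A to ACVR2B and FSTL4 to FSTL5. How often pairs of other genes separate in this way was not computed. The ratio of INHBA to FST, 0.347 to 1.02 in follicular and 0.453 to 0.716 in luteal libraries, had its luteal range inside the follicular one, and both genes averaged lower in luteal libraries.

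Of the receptor genes, ACVR1B, the type I receptor for activins, was the steadiest of the 10 genes. It had 69.6, 69.2, 77.3, 79.3 and 77.5 CPM in follicular libraries 1 to 5 and 76.3, 76.7, 74.9, 77.9 and 80.7 CPM in luteal libraries 1 to 5. Its highest and lowest libraries differed by a ratio of 1.17, and the log2 fold change was 0.05 (SE 0.08, edgeR adjusted p = 0.730).

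The type II receptor genes differed in how much they varied. ACVR2A had 1.79, 2.38, 1.11, 2.06 and 4.40 CPM in follicular libraries 1 to 5 and 2.63, 3.62, 3.87, 2.47 and 4.59 CPM in luteal libraries 1 to 5, from 21 to 202 reads per library. ACVR2B had 24.9, 23.9, 25.05, 23.3 and 26.3 CPM in follicular libraries and 24.6, 27.1, 29.6, 25.03 and 31.8 CPM in luteal libraries, in the same order. For ACVR2A the ratio of the highest to the lowest library was 4.12 and follicular 5 lay above all luteal libraries but luteal 5. For ACVR2B that ratio was 1.37, with 3 of 5 luteal libraries above every follicular one. The log2 fold changes were 0.52 (SE 0.33, edgeR adjusted p = 0.452) and 0.16 (SE 0.10, adjusted p = 0.452), and with the first component as a covariate both were 0.07 (SE 0.17 and 0.09).

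All 10 genes passed the filter on low counts, and 8 averaged higher and 2 lower in luteal libraries, and the median of their log2 fold changes was 0.15. Among the 18276 genes tested 51.5% were higher and the median was 0.01. Without follicular 1 and 3, 7 of the 10 were higher, and with the first component as a covariate 6 were. FSTL4 set aside, edgeR called 0 of the other 9 after adjustment over all genes, and 0% of the genes tested. At an unadjusted p under 0.05 there was 1 of the 9, FST, against 11.4% (2083) of the genes tested, 4.27% higher and 7.12% lower in luteal libraries. These counts depended on single libraries: without follicular 5 they were 5 of the 9 and 6217 of 18201 genes, and without follicular 3 they were 1 of the 9 and 958 genes. Limma-voom called 0 genes, and DESeq2 called 35 (0.227% of the 15432 genes to which it gave an adjusted p), with 0 of the 9 among them. The phases did not overlap for 1 of the 10 genes, FSTL4, and for 1.12% of the genes tested (0.607% with luteal higher and 0.514% with luteal lower). Because FSTL4 was chosen for this contrast, these counts describe the group and support nothing further.

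**Figure D2:**
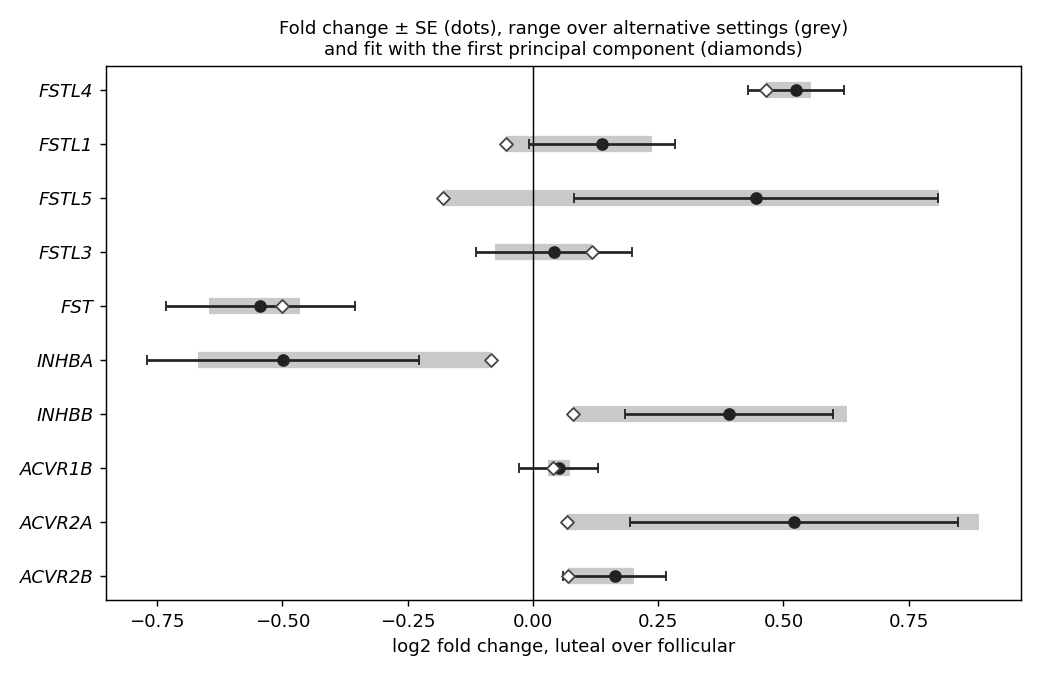
Log2 fold change of luteal over follicular on the horizontal axis for each of the 10 genes, as the edgeR estimate ± SE (black), the range over 19 alternative settings (grey band) and the estimate after adding the first principal component as covariate (open diamond). FSTL4 stays between 0.47 and 0.56 and FST between -0.65 and -0.46 over all 19, while the diamonds of FSTL5, INHBA, INHBB and ACVR2A lie near or past 0.

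The genes also differed in how closely they followed the first component within a phase. After each phase was centred on its mean, log2 CPM followed the component with Pearson r = 0.949 for FSTL5, 0.943 for ACVR2A, 0.892 for INHBB and -0.896 for INHBA over 10 libraries. FSTL4 (0.425), FST (-0.141), FSTL3 (-0.284) and ACVR1B (0.139) followed it less closely, and FSTL1 (0.774) and ACVR2B (0.670) lay between. A relation as close as 0.8 in either direction was held by 4 of the 10 genes and by 39.3% of all genes tested, a share near that of the group. The libraries differ together in depth and RNA composition, and the component is itself made from all genes, so these values describe the libraries. Summed marker levels moved with the same genes within phases: endothelium markers (429 to 684 CPM in follicular and 424 to 639 CPM in luteal libraries) with r = -0.907 for FSTL5, -0.866 for ACVR2A, -0.851 for INHBB and 0.881 for INHBA, and microglia markers (469 to 790 and 480 to 603 CPM) with r = -0.919 for INHBB. The endothelium sum was led by EGFL7, at a mean of 253.4 CPM over all libraries. Means of the other endothelium markers ran from 13.2 (CDH5) to 70.7 CPM (PLVAP). By phase 8 of the 10 endothelium markers averaged higher in the luteal phase, while the luteal median of the sum was lower (572 against 670 CPM). The r for endothelium describe the sum within phases, and r for its single markers were not computed. For FSTL4 the closest of the 10 cell marker lists was that of ependyma and tanycytes (r = -0.672; 1358 to 1734 and 1473 to 1891 CPM). The part of these cells in the results was not tested.

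**Figure D3:**
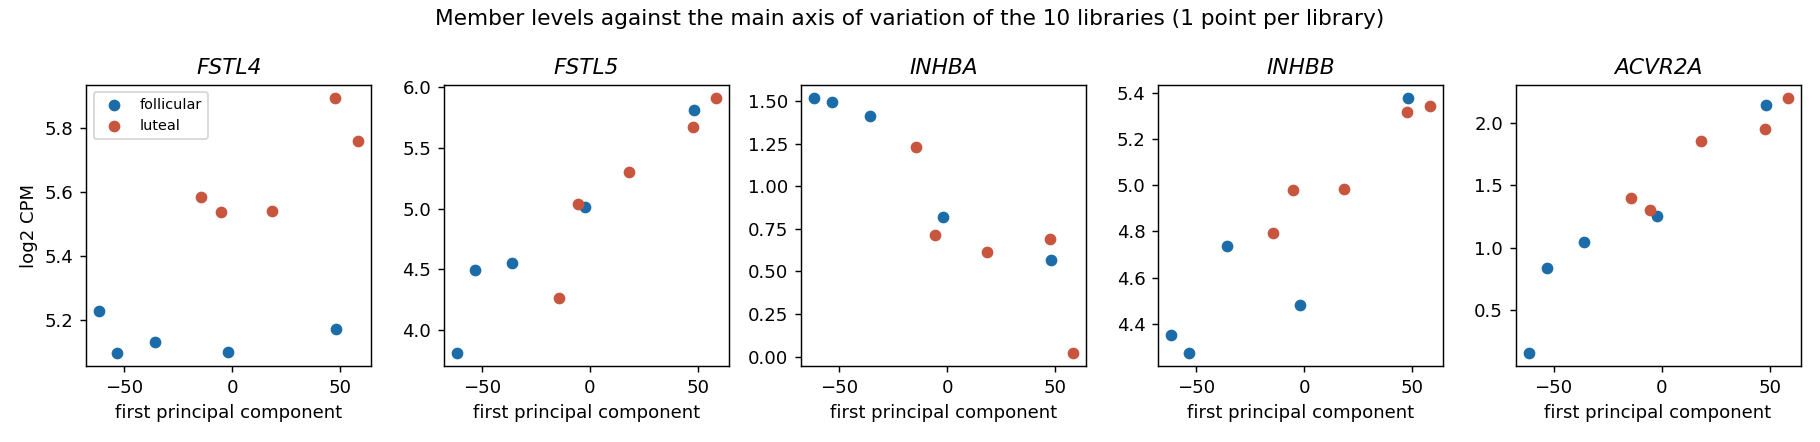
Log2 CPM of 5 of the genes on the vertical axes against the first principal component of the libraries, 1 point per library, follicular in blue and luteal in red. FSTL5, INHBB and ACVR2A rise and INHBA falls along the axis, on which follicular 1, 3 and 4 lie below every luteal library. Only follicular 2 and 5 lie in the range that the phases share. They lie among or near the luteal points for FSTL5, INHBA and ACVR2A and below them for FSTL4. For INHBB follicular 2 (22.3 CPM) lies below every luteal library and follicular 5 (41.6 CPM) above every luteal library.

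Relations among the genes were taken in the same way. Within phases FSTL5 varied with ACVR2A (Pearson r = 0.926), FSTL1 (0.873) and INHBB (0.839) and against INHBA (-0.908), over 10 libraries that share the component. FSTL4 varied most closely with ACVR2B (0.726) and against FST (-0.596). FSTL4 and FSTL5, the closest relatives in domain structure, had r = 0.328.

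The genes most like FSTL4 in their variation within phases were CASP9 (r = 0.967), which encodes the initiator caspase of the mitochondrial pathway of cell death, LOC105605752 (0.951) and ZNF449 (0.944), a zinc finger gene. They were the closest of 16207 genes with a mean of at least 1 CPM, over 10 libraries, and picking the closest of so many genes favours high values of r. FSTL4 varied mainly among the luteal libraries, with a coefficient of variation of 11.3% against 3.91% in follicular libraries. These r therefore rest mainly on the luteal libraries. Their phase differences were smaller than that of FSTL4, with log2 fold changes of 0.11 (SE 0.10) for CASP9, 0.12 (SE 0.20) for LOC105605752 and 0.06 (SE 0.19) for ZNF449.

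Further genes of the pathway were counted in 8 lists, which held 86 tested genes outside the 10. None passed edgeR over all genes, as did 0% of the genes tested. Among ligands, INHA, the alpha subunit that turns activin subunits into inhibins, had means of 12.2 ± 2.44 and 11.6 ± 2.73 CPM in the follicular and luteal phase (log2 fold change -0.07, SE 0.19, edgeR adjusted p = 0.856). INHBC and INHBE had at most 1 and 9 reads in any library and were not tested.

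Of 9 tested activin receptors and coreceptors, 8 averaged higher in luteal libraries, with a median log2 fold change of 0.17. ACVR1, a type I receptor mainly for bone morphogenetic proteins, had 20.9 ± 7.59 and 32.1 ± 6.95 CPM (log2 fold change 0.62, SE 0.24, edgeR adjusted p = 0.426). ACVR1C, a type I receptor for nodal and activin B, had 2.18 ± 1.70 and 3.77 ± 1.31 CPM (0.75, SE 0.43, adjusted p = 0.441). Both followed the first component within phases (r = 0.932 and 0.929), and with it as a covariate their log2 fold changes were 0.25 and 0.22.

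Of the 19 SMADs and their partners, 17 averaged higher in luteal libraries, with a median log2 fold change of 0.30. SMAD3, one of the pair of SMADs that activin receptors phosphorylate, was higher in every luteal library than in any follicular one, at 30.4 to 34.2 CPM in follicular and 36.6 to 45.0 CPM in luteal libraries. Such a separation was found for 1 of the 19 genes and for 1.12% of all genes tested. The means of SMAD3 were 32.1 ± 1.44 and 40.3 ± 3.13 CPM (± SD, n = 5 for each; log2 fold change 0.33, SE 0.09), and it did not pass over all genes (edgeR adjusted p = 0.426). With the first component as a covariate the value for SMAD3 was 0.28 (SE 0.08).

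SMAD2, the other of the pair, had 33.3 ± 7.99 and 43.03 ± 7.89 CPM (0.37, SE 0.18, edgeR adjusted p = 0.426). It followed the component with r = 0.932 and was at 0.07 (SE 0.09) with it as a covariate. For the list as a whole 11 of 19 genes were higher in that fit, with a median of 0.00 on the log2 scale, and without follicular 1 and 3 there were 16 of 19 with a median of 0.10.

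Of 14 SMAD target genes 10 averaged higher, and the median change was 0.21 on the log2 scale (0.09 with the first component as a covariate). ID4, which encodes an inhibitor of helix-loop-helix factors, had 10.99 ± 5.21 and 19.3 ± 2.097 CPM (0.80, SE 0.27), and PMEPA1, which encodes a membrane protein that dampens SMAD signalling, had 73.6 ± 4.87 and 65.3 ± 2.37 CPM (-0.17, SE 0.08). Both had an edgeR adjusted p of 0.426. ID4 followed the first component within phases (r = 0.793), with a log2 fold change of 0.51 with it as a covariate and 0.49 without follicular 1 and 3.

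**Figure D4:**
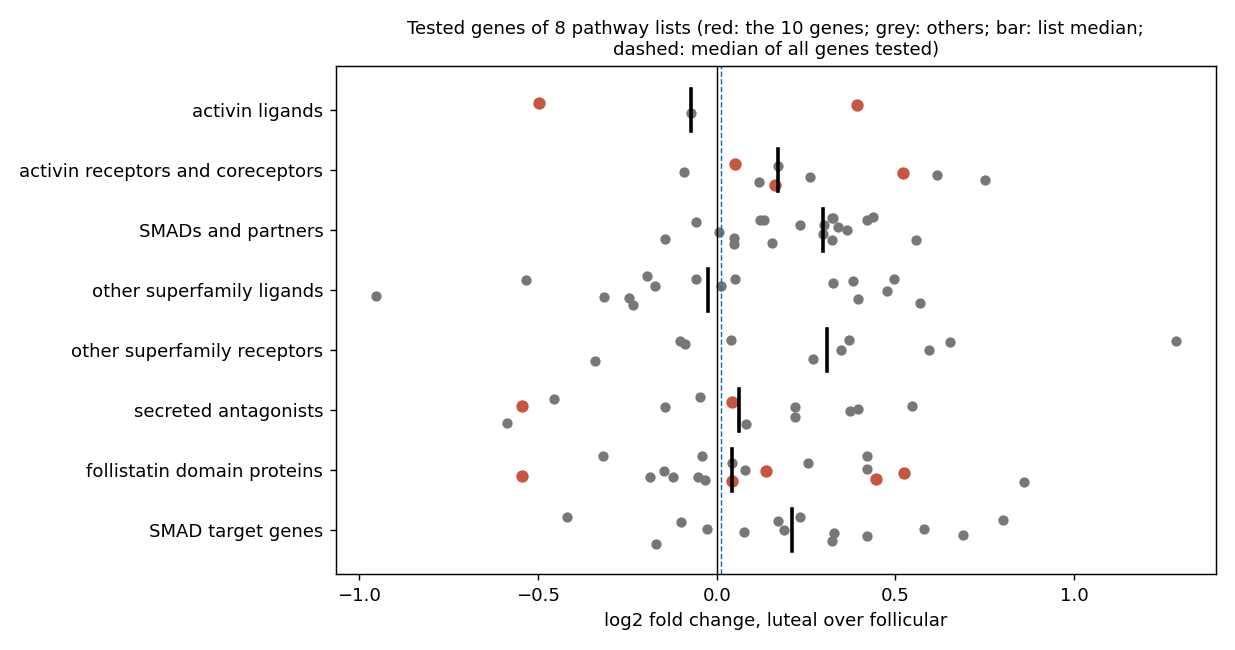
Log2 fold change of luteal over follicular on the horizontal axis for each tested gene of the 8 pathway lists, with the 10 genes of the group in red, other genes in grey, the list median as a black bar and the median of all genes as a dashed line. The SMADs and partners lie mainly to the right (17 of 19), and the follistatin domain proteins lie on both sides (10 higher and 8 lower).

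Of the 18 tested proteins with a follistatin domain, the family members included, 10 averaged higher and 8 lower, with a median log2 fold change of 0.04. RECK, a membrane-anchored inhibitor of metalloproteinases, had 3.90 ± 3.51 and 7.23 ± 3.25 CPM (0.86, SE 0.49), and SMOC1, a secreted calcium-binding matrix protein, had 41.6 ± 9.05 and 33.3 ± 6.03 CPM (-0.32, SE 0.18), with edgeR adjusted p of 0.441 and 0.434. With the first component as a covariate RECK was at 0.22 and SMOC1 at 0.02.

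Of 12 secreted antagonists, FST and FSTL3 included, 7 averaged higher and 5 lower, with a median of 0.06. NBL1, a bone morphogenetic protein antagonist, had 224.6 ± 39.3 and 149.6 ± 50.5 CPM (-0.59, SE 0.22, edgeR adjusted p = 0.426), and WFIKKN1, a follistatin-domain protein that binds myostatin, had 26.6 ± 8.75 and 19.3 ± 6.75 CPM (-0.45, SE 0.27, adjusted p = 0.442). The values with the component were -0.25 and 0.04.

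Other ligands of the superfamily were split, with 8 of 16 higher and 8 lower and a median of -0.02. BMP5 and BMP7, both bone morphogenetic proteins, had log2 fold changes of 0.50 (SE 0.21) and 0.48 (SE 0.24). BMP15 and GDF3 had 0 reads in all 10 libraries, which allows up to 3 of the 328872532 reads, for counting error only. Of 10 other receptors 7 averaged higher, with a median of 0.31, and 6 with a median of 0.05 when the first component was a covariate: TGFBR2, the type II receptor for TGF-beta, had 36.9 ± 10.8 and 55.8 ± 9.43 CPM (0.59, SE 0.19) and AMHR2, the receptor for anti-Müllerian hormone, 0.508 ± 0.433 and 1.33 ± 0.962 CPM (1.28, SE 0.59). These 4 named genes had edgeR adjusted p from 0.426 to 0.430, and with the first component as a covariate the log2 fold changes were 0.30 for BMP5, 0.25 for BMP7, 0.28 for TGFBR2 and 0.40 for AMHR2.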

How the data were processed

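Per the labels' protocols, RNA came from TriReagent extracts and the library kit was a stranded one for mRNA. The authors deposited raw read counts, whole numbers for every gene and each of the 10 libraries. Software named in the submitters' processing notes is featureCounts 2.0.0 for counting, Bowtie2 2.3.5.1, TopHat2 2.1.1, SAMtools 1.9, FastQC and bcl2fastq 2.20. The build, strand setting and treatment of shared reads are not given in the sources used here. Of the gene identifiers 94.4% were found in the RefSeq table of ARS-UI_Ramb_v3.0, used for names and overlaps only.

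The test was edgeR 4.0.16 in R 4.3.3 (quasi-likelihood, two-sided), fitted to all 10 libraries with phase alone, TMM scaling and filterByExpr (minimum count 10, minimum total 15). Fold changes are luteal over follicular. Benjamini-Hochberg adjustment covered 18276 genes, with a threshold of 0.05. P-values reflect the spread between RNA mixes of different ewes. Log2 CPM used a prior count of 2. Of 236 listed genes 231 were matched. The members and lists were chosen with earlier results of these data known. Named beside the 10 genes were up to 2 genes per pathway list with the smallest p and the 3 genes most like FSTL4. Levels per gene length, planned, were not made because no transcript lengths were used here. Alternatives were other scalings and filters, replicate number as a block, omission of libraries, DESeq2 1.42.0, limma-voom (limma 3.58.1), a threshold of 0.10 and, added after seeing the data, the first principal component as a covariate. Every pair of libraries differed by more than sampling noise.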

Additional observations from a re-analysis of the deposited data

Results flagged for a closer look

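Within each phase the highest and lowest library were examined with Dixon's ratio, the distance to the next library over the whole range, at its 95% limit for groups of 5. Of 50 groups 4 exceeded the limit, none of them for the 10 genes themselves, and about 1 in 20, or 2.5, would do so by chance. Follicular 5 was apart in ACVR1C, at 5.14 CPM where the next follicular library had 2.09 CPM. It was also apart in RECK, at 10.0 CPM with the next at 3.74 CPM, and in NBL1, at 155.9 CPM with the next at 228.3 CPM. Luteal 2 was apart in BMP7, at 7.56 CPM with the next luteal library at 6.11 CPM.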

How the results depend on the processing

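The count of genes called over all genes, 0 by edgeR, was 0 under both other scalings, both other filters, the threshold of 0.10, the first component as a covariate, limma-voom and without follicular 1 and 3. It was 35 by DESeq2 and ran from 0 to 1 when each library was left out, the 1 coming without luteal 4. The count called among the 9 genes other than FSTL4, and that among other pathway genes, was 0 in every setting. FSTL4, FST, INHBA, INHBB and the receptor genes ACVR1B, ACVR2A and ACVR2B kept their direction in all 19 settings. For FSTL4 this is a description only, since it was chosen by its difference in this contrast and its phases did not overlap. FSTL1 turned without follicular 1 and 3 (log2 fold change -0.0011) and with the component (-0.053), FSTL5 with the component (-0.18), and so did WFIKKN1 (0.035) and SMOC1 (0.017). FSTL3 ran from -0.075, without luteal 4, to 0.11 when each library was left out. INHA ran from -0.21 to 0.021 in that way, turning without follicular 3 (0.0076) and luteal 5 (0.021), and was at 0.11 without follicular 1 and 3 and at 0.24 with the component. Without follicular 5 the log2 fold changes of FSTL5, INHBB and ACVR2A were 0.81, 0.63 and 0.89, and those of ACVR1C, RECK and AMHR2 were 1.37, 1.595 and 1.96, and 0 of them passed (edgeR adjusted p from 0.0606 to 0.0958). BMP5 was at 0.32 without luteal 3. The cause was not tested.

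With the replicate number as a block edgeR called 0 genes, and 4512 genes had an unadjusted p under 0.05 against 2083 without it, with a smallest adjusted p of 0.0520 against 0.426. Libraries of the same number correlated at 0.362, 0.0541, -0.333, 0.282 and 0.630 in their deviations, and follicular 1, 4 and 5 correlated best with the luteal library of their own number while 2 and 3 did not. The labels tie no ewe or batch to a number, so the numbers were not taken as pairs. FST, INHBA and ACVR2A had as few as 53, 43 and 21 reads in a library, which limits their precision. The same holds for AMHR2, ACVR1C and RECK, named above with large fold changes, which had as few as 4, 20 and 34 reads.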
